A study of Mus musculus with 9 samples.

Results

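The variable segments of the T cell receptor were followed through RNA-seq of mouse lung. Every gene of the count table whose symbol marks it as an alpha (TRA), beta (TRB), gamma (TRG) or delta (TRD) variable segment and that held at least 1 read over all libraries was taken, which gave 106 of 30865 genes. Of these, 73 belong to TRA, 23 to TRB, 6 to TRG and 4 to TRD. They carried 3164 reads in all: 2304 on TRB, 566 on TRA, 176 on TRD and 118 on TRG.

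A T cell builds its antigen receptor by cutting DNA and joining 1 variable segment, for beta and delta chains also a diversity segment, and a joining segment ahead of a constant gene. The variable segment encodes most of the antigen-binding face and is kept for the life of the clone, so that the mix of variable segments in a tissue reflects which clones its T cells come from. Most T cells carry an alpha and a beta chain and read peptides on MHC molecules, whereas gamma-delta T cells, which in the lung include long-lived resident cells, mostly do not. In the thymus the joining is done by the recombinase genes Rag1 and Rag2, and Dntt adds random bases at the joints.

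The groups were lungs of mice with hypoxia and a Hif1a knockdown according to the labels, lungs of mice under hypoxia alone and lungs under normoxia. Each had 3 libraries. The sample titles of the first group word it as a knockdown of Hif1a after hypoxia. They do not say whether hypoxia went on during the knockdown. The series asks what sustained hypoxia, and a knockdown of Hif1a in addition, do to lung gene expression. Strain, sex, age, oxygen level, length of exposure and the means of the knockdown stand in none of the sources used here. Nothing there says whether each library came from its own animal, so the p-values measure the spread between these samples, which may be technical.

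The libraries held 15566485 to 18046442 counts. Sample titles name muscle and the tissue field names lung. Sftpc, the surfactant protein C gene of alveolar type 2 cells, had 246856 to 301355 counts in libraries labelled knockdown, 229362 to 309247 in hypoxia and 215142 to 238559 in normoxia, while the muscle genes Acta1 and Myh4 had at most 8 counts in any library. Ckm, the muscle creatine kinase gene, had 0 to 122 counts in libraries labelled knockdown, 7 to 239 in hypoxia and 17 to 131 in normoxia. Hif1a, the gene named as the target, had 1547, 1309 and 1451 counts in libraries labelled knockdown, 1686, 1725 and 1542 in hypoxia and 1270, 1453 and 1311 in normoxia. The label and hypoxia alone differed in it by -0.13 on the log2 scale (SE 0.08, adjusted p = 0.62), so the group is called here by its label.

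The sequences of the segments show how well reads can be told apart. Shown first are the 3′ ends of the segments on which the results turn, from 60 bases before the conserved cysteine codon to the end of the segment, with that codon in capitals. It opens the stretch (CDR3) in which the joint lies, and the last bases printed are those that joining can trim. The sequences come from the GENCODE M21 transcripts of GRCm38, where the beta segments lie on chromosome 6, at chr6:41151740-41152230 for Trbv16, chr6:41141188-41141658 for Trbv15, chr6:41116007-41116468 for Trbv13-1, chr6:41178375-41179048 for Trbv19, chr6:41121396-41121832 for Trbv13-2 and chr6:41130147-41130585 for Trbv13-3, all on the plus strand. The delta segment Trdv4 lies at chr14:54074905-54075515 on the plus strand and the gamma segment Trgv2 at chr13:19336573-19337167 on the minus strand. Each is annotated as a T cell receptor variable gene.
Trbv16: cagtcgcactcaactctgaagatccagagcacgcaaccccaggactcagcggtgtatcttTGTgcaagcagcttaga
Trbv15: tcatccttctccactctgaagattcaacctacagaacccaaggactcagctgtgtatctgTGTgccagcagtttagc
Trbv13-1: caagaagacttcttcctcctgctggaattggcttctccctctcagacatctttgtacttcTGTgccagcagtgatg
Trbv19: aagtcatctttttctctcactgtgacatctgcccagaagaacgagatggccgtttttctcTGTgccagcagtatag
Trbv13-2: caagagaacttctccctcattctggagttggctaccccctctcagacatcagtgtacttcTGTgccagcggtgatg
Trbv13-3: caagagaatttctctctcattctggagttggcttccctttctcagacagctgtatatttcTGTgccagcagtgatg
Trdv4: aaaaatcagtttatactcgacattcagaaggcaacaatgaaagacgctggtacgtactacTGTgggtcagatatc
Trgv2: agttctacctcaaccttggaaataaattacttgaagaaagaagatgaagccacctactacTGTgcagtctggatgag

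Over the 240 bases that end with this codon, Trbv16 shared 71.7% of positions with Trbv15 and 30% to 34.2% with the 3 Trbv13 segments and Trbv19. Trbv13-2 and Trbv13-3 shared 91.3%, and Trbv13-1 and Trbv13-2 shared 87.1%. Of 20 TRB segments that could be compared, 0 had another segment at 98% identity or more, and the median identity to the nearest segment was 63.1%. TRB segments are therefore told apart over most of their length.

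TRA differs, since stretches of the locus exist in several copies, whose segments carry a d or an n in the name. Of 69 TRA segments compared, 33 were at least 98% identical to another and 12 were identical over the 240 bases. These 33 segments carried 44.2% of the reads of the segments compared. The 3 copies of Trav16 are printed over 257 bases to the end of the segment, since they include the most counted TRA segment; capitals mark the 6 positions at which any of them differ. Trav16 lies at chr14:53743104-53743705, Trav16n at chr14:53351028-53351621 and Trav16d-dv11 at chr14:53047287-53047821, all on the plus strand of GRCm38.
Trav16: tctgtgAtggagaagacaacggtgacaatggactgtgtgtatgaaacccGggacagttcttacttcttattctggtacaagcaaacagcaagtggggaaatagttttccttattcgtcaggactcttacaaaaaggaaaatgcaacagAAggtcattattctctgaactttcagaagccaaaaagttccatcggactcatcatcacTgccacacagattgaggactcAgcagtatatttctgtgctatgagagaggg
Trav16n: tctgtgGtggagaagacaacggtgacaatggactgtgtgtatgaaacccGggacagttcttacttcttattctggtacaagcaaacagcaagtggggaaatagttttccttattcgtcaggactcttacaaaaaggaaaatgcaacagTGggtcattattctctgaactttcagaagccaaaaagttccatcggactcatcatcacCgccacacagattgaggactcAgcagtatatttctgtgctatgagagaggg
Trav16d-dv11: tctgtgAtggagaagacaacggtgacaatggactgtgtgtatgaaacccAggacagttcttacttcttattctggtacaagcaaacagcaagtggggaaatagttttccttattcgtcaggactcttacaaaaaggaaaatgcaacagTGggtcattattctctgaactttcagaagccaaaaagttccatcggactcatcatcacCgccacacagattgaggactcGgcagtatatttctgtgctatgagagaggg

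Trav16 and Trav16n differ at 4 of the 257 positions, Trav16 and Trav16d-dv11 at 5, and Trav16n and Trav16d-dv11 at 3. A read that covers none of these cannot be placed in 1 copy, so counts of single TRA segments are uncertain where copies exist and the sum over TRA is the firmer value. Of the 176 variable segments annotated in the 4 loci (128 TRA, 35 TRB, 7 TRG and 6 TRD), only the 106 with reads in the table were analysed here. They include 7 pseudogenes, 4 of TRA and 3 of TRB.

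Alpha and beta segments were several times more abundant in hypoxia than in either other group, and gamma and delta segments were not. The summed TRB level was 5.08, 8.81 and 4.92 CPM (reads of a segment scaled by the TMM-adjusted library total) in libraries labelled knockdown, 49.5, 12.2 and 35.6 CPM in hypoxia and 5.37, 5.67 and 5.09 CPM in normoxia. The summed TRA level was 1.51, 1.96 and 0.995 CPM in libraries labelled knockdown, 12.2, 3.81 and 8.55 CPM in hypoxia and 1.52, 0.845 and 1.08 CPM in normoxia. For both loci the 3 hypoxia libraries lay above every other library, and hypoxia replicate 2 was the lowest of them.

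**Figure D1:**
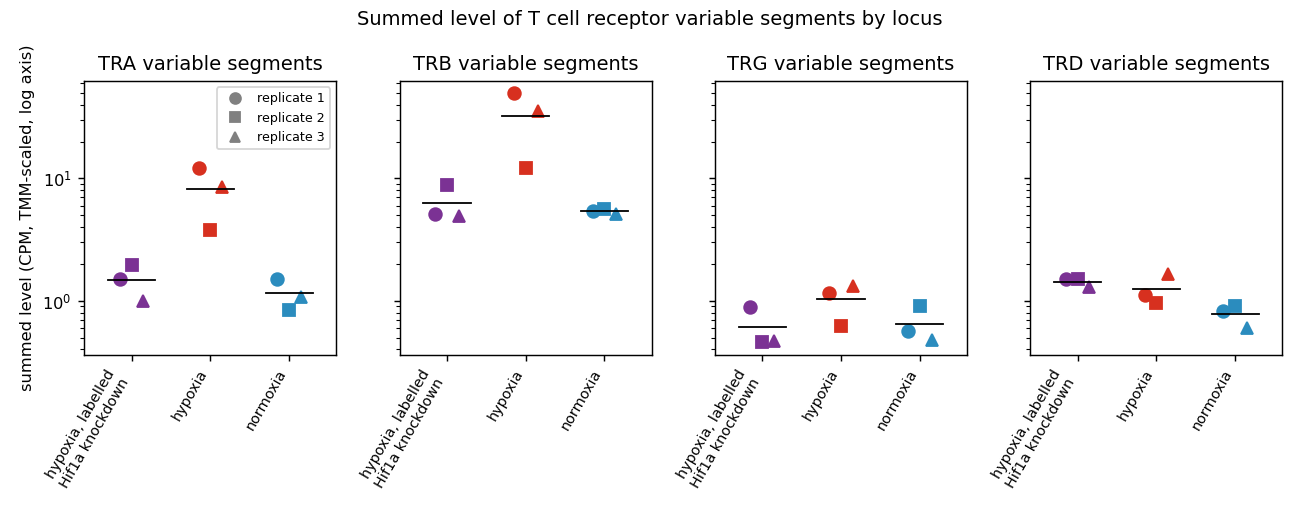
Summed level of the variable segments of each locus (CPM scaled by TMM, log axis) in the 3 libraries of each group, with bars at the group mean. TRA and TRB sums in hypoxia lie above all other libraries, TRG sums overlap in all groups, and TRD sums are lowest in normoxia.

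The group means of TRB were 6.27 ± 2.20 CPM in libraries labelled knockdown, 32.4 ± 18.9 in hypoxia and 5.38 ± 0.29 in normoxia (SD, n = 3 each). The ratio of hypoxia to normoxia was 6.03-fold (7.92-fold without hypoxia replicate 2), and the log2 ratio of the knockdown label to hypoxia was -2.37. TRA averaged 1.49 ± 0.48 CPM in libraries labelled knockdown, 8.18 ± 4.19 in hypoxia and 1.15 ± 0.34 in normoxia. Its ratio of hypoxia to normoxia was 7.13-fold (9.04-fold without hypoxia replicate 2), and its log2 ratio of the label to hypoxia was -2.46. Libraries labelled knockdown overlapped with normoxia in both loci, with log2 ratios of 0.22 for TRB and 0.37 for TRA. No p-value is given for sums, and in lung RNA a change in the number of T cells cannot be told apart from a change in receptor RNA per cell.

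The gamma segments numbered 16, 7 and 8 counts in libraries labelled knockdown, 21, 11 and 23 in hypoxia and 9, 15 and 8 in normoxia. The groups overlapped, with means of 0.606 ± 0.248 CPM in libraries labelled knockdown, 1.04 ± 0.364 in hypoxia and 0.651 ± 0.225 in normoxia. The delta segments had 27, 23 and 22 counts in libraries labelled knockdown, 20, 17 and 29 in hypoxia and 13, 15 and 10 in normoxia. Their means were 1.43 ± 0.125 CPM in libraries labelled knockdown, 1.25 ± 0.37 in hypoxia and 0.775 ± 0.158 in normoxia. Here both hypoxia groups lay above every normoxia library, and they overlapped with each other.

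The makeup of the segment reads differed accordingly. Gamma and delta segments made up 26.7%, 15.4% and 22.9% of all segment counts in libraries labelled knockdown, 3.55%, 9.06% and 6.33% in hypoxia and 16.8%, 21.7% and 14.9% in normoxia. The hypoxia libraries lay below all others, and the other 2 groups overlapped. The gamma and delta sum itself was 1.76 to 2.40 CPM in libraries labelled knockdown, 1.59 to 2.98 CPM in hypoxia and 1.08 to 1.81 CPM in normoxia.

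Of the beta segments, Trbv16, known also as Tcrb-V11 and as a segment whose T cells mouse mammary tumour virus superantigens delete in some strains, stood out in hypoxia. It had 2, 11 and 11 counts in libraries labelled knockdown, 166, 34 and 104 in hypoxia and 4, 6 and 1 in normoxia. Each hypoxia library was above each of the others by a factor of at least 3 in counts. It rose in hypoxia against normoxia by 4.62 on the log2 scale (SE 0.76, adjusted p = 0.0086) and was lower in libraries labelled knockdown than in hypoxia by -3.54 (SE 0.68, adjusted p = 0.025). Between the label and normoxia the difference was 1.08 (SE 0.89, adjusted p = 0.52).

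**Figure D2:**
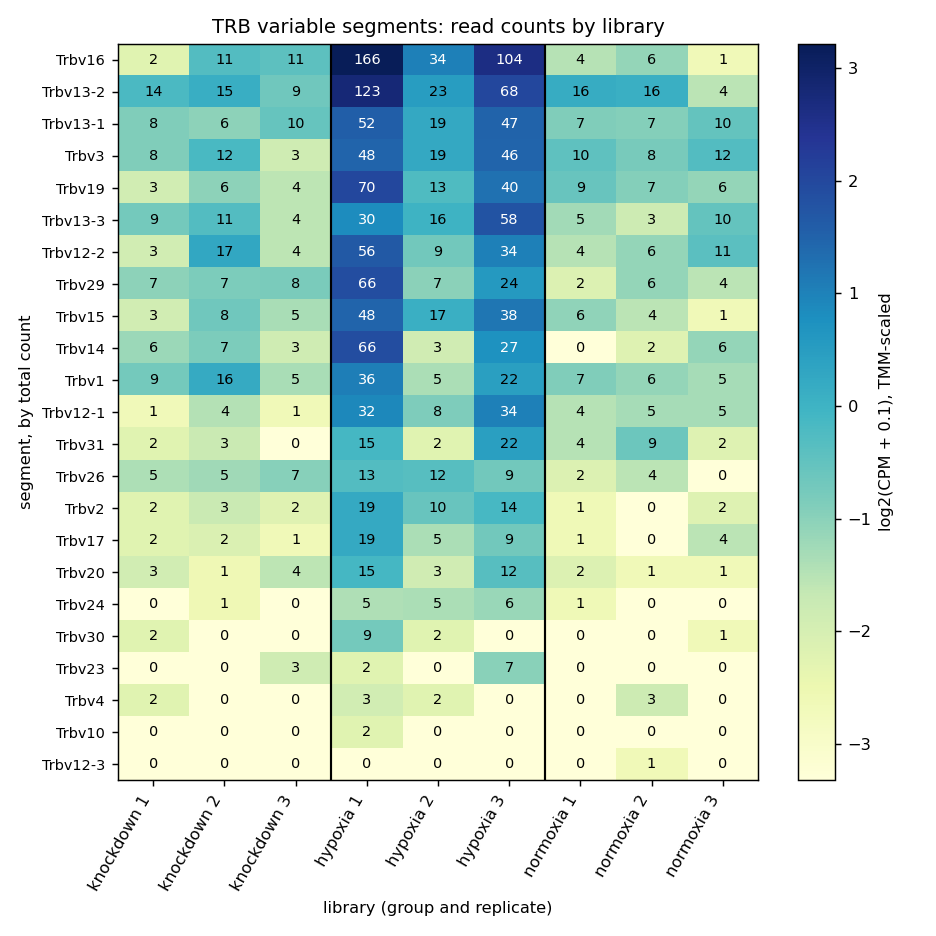
Read counts of the 23 TRB segments (rows, by total count) in the 9 libraries (columns, by group), coloured by log2(CPM + 0.1). Counts in the hypoxia columns are higher over most rows, and Trbv16 has the highest count of the column in all 3 of them.

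Trbv16 also took a larger share of the beta reads in hypoxia. Its share of TRB counts was 2.20%, 8.15% and 13.1% in libraries labelled knockdown, 18.5%, 15.9% and 16.7% in hypoxia and 4.71%, 6.38% and 1.18% in normoxia. The exact (Clopper-Pearson) 95% intervals of the hypoxia libraries, which cover counting error only, ran from 11.3% at the lowest to 21.5% at the highest. Those of libraries labelled knockdown ran from 0.267% to 22.2% and those of normoxia from 0.0298% to 13.4%. The normoxia intervals overlapped with that of hypoxia replicate 2 alone. The intervals of hypoxia replicates 1 and 3, from 16.1% and 13.9% upward, lay above all of normoxia. The interval of knockdown replicate 1, up to 7.71%, overlapped with no hypoxia library, and those of knockdown replicates 2 and 3 overlapped with at least 1. The interval of knockdown replicate 3, with 11 of 84 TRB counts, holds the shares of all 3 hypoxia libraries. The group means were 7.81% ± 5.46 in libraries labelled knockdown, 17.1% ± 1.36 in hypoxia and 4.09% ± 2.66 in normoxia (SD, n = 3 each). By level per kilobase of transcript, Trbv16 ranked 7 of the 23 TRB segments in libraries labelled knockdown, 1 in hypoxia and 12 in normoxia. Without Trbv16 the rest of TRB still differed by 5.19-fold between hypoxia and normoxia, with a log2 ratio of -2.21 between the label and hypoxia.

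**Figure D3:**
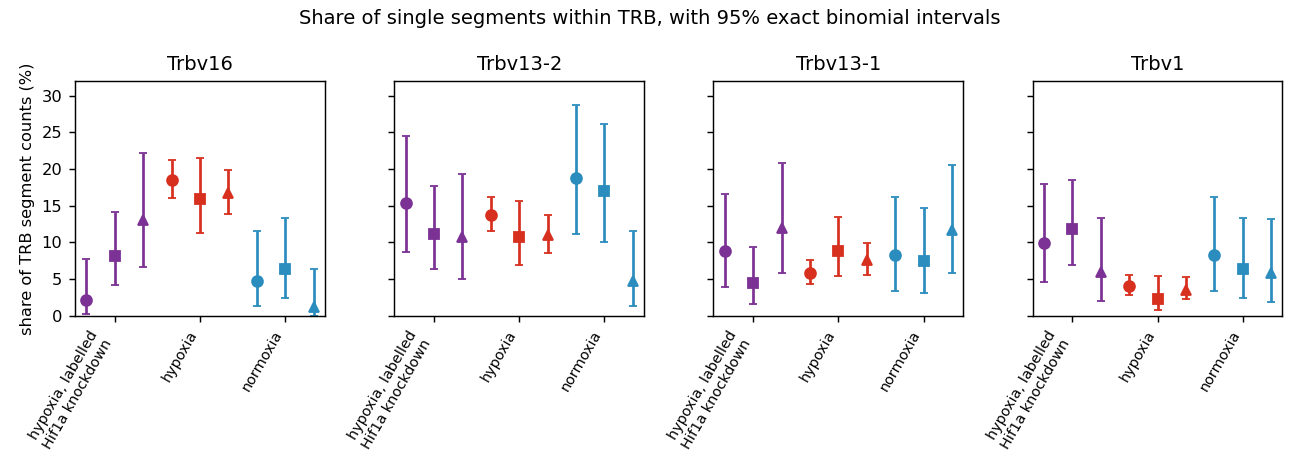
Share of the TRB counts taken by Trbv16, Trbv13-2, Trbv13-1 and Trbv1 in each library, with exact binomial 95% intervals (counting error only). The Trbv16 shares are highest in the 3 hypoxia libraries and the Trbv1 shares are lowest there, while those of the other segments overlap between groups.

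Further beta segments were likewise most counted in hypoxia. Trbv15, the segment most like Trbv16 in sequence among those printed, had 3, 8 and 5 counts in libraries labelled knockdown, 48, 17 and 38 in hypoxia and 6, 4 and 1 in normoxia. It rose in hypoxia against normoxia (log2 fold change 3.06, SE 0.63, adjusted p = 0.023), whereas its difference of -2.56 between the label and hypoxia did not pass (adjusted p = 0.066). Trbv13-1, a segment of the Vbeta8 family known from CD8 T cells against an influenza nucleoprotein peptide, had 8, 6 and 10 counts in libraries labelled knockdown, 52, 19 and 47 in hypoxia and 7, 7 and 10 in normoxia. It rose in hypoxia (2.17, SE 0.45, adjusted p = 0.023) and was lower with the label than in hypoxia (-2.20, adjusted p = 0.032).

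Trbv19, the Vbeta6 segment through which the mouse superantigen Mls-1 is bound, had 3, 6 and 4 counts in libraries labelled knockdown, 70, 13 and 40 in hypoxia and 9, 7 and 6 in normoxia. It rose in hypoxia at the edge of the threshold (2.34, SE 0.58, adjusted p = 0.0497) and was lower with the label than in hypoxia (-3.11, adjusted p = 0.031). For Trbv15, Trbv13-1 and Trbv19 too, no hypoxia library overlapped with another group.

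In all, 10 segments passed the edgeR filter, 9 of TRB and Trdv4, and the other 96 were not tested. The filter asks for about 0.583 CPM in at least 3 libraries, a level that 8 of the 10 reached in all 3 hypoxia libraries. Outside hypoxia 3 of the 10 reached it in at least 3 libraries. The rest passed only with the help of hypoxia libraries, so their counts are no measure of all members. Trbv16, Trbv15, Trbv13-1 and Trbv19, the 4 that rose in hypoxia, are among that rest. Their number beside the share of all tested genes is thus no test of the segments. In hypoxia against normoxia 4 of the 10 rose, where 2.77% of all 17578 tested genes did, and 7 of the 10 lay higher with no overlap of libraries, against 10.6% of all tested genes. Between the label and hypoxia 3 of the 10 were lower, where 0.449% of tested genes were, and 7 lay lower with no overlap, against 7.43%. The 3 were among the 4 that rose in hypoxia, and both comparisons share the hypoxia libraries. Between the label and normoxia none of the 10 passed in either direction with edgeR, where 8.23% of tested genes did, and none had an unadjusted p under 0.05. DESeq2 and limma-voom also called none there.

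The calls of single segments depended on the libraries and the tool. Without hypoxia replicate 2 the calls numbered 12 for hypoxia against normoxia and 8 for the label against hypoxia. Calls over all tested genes, in either direction, moved as well. They numbered 742 for hypoxia against normoxia in the main fit, 965 without hypoxia replicate 2, 209 without normoxia replicate 3 and 462 with limma-voom. For the label against hypoxia they numbered 301 in the main fit, 425 without hypoxia replicate 2, 189 without knockdown replicate 3 and 270 with limma-voom. Of the 4 that rose in hypoxia, 0 passed without normoxia replicate 3 and with limma-voom, and 1, Trbv16, passed without hypoxia replicate 1, hypoxia replicate 3 or normoxia replicate 2. Of the 3 that were lower with the label than in hypoxia, 0 passed without any 1 of the knockdown replicates, without hypoxia replicate 1 or 3, and with limma-voom, and 1, Trbv16, passed without normoxia replicate 2 or normoxia replicate 3. Without knockdown replicate 2 the 1 segment that passed there was Trbv12-1, which was named after its values were seen.

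Among the tested segments that did not pass, Trbv13-2 matters as the Vbeta8.2 segment of many invariant natural killer T cells. It had 14, 15 and 9 counts in libraries labelled knockdown, 123, 23 and 68 in hypoxia and 16, 16 and 4 in normoxia. The log2 difference of hypoxia from normoxia was 2.43 (adjusted p = 0.055) and that of the label from hypoxia was -2.39 (adjusted p = 0.11). As a share of TRB it took 12.4% ± 2.59 in libraries labelled knockdown, 11.8% ± 1.67 in hypoxia and 13.5% ± 7.68 in normoxia, which overlapped. The 3 Trbv13 segments together held 28.4% ± 5.3 of TRB counts in libraries labelled knockdown, 26.0% ± 2.7 in hypoxia and 29.6% ± 2.9 in normoxia.

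Trbv1 and Trbv29 (Vbeta2 and Vbeta7), the other beta segments used by invariant natural killer T cells, both had their highest counts in hypoxia replicates 1 and 3, with hypoxia replicate 2 within the range of the other groups. Trbv1 had 9, 16 and 5 counts in libraries labelled knockdown, 36, 5 and 22 in hypoxia and 7, 6 and 5 in normoxia, with a log2 difference of 1.67 between hypoxia and normoxia (adjusted p = 0.24). Its share of TRB counts was 5.95% to 11.9% in libraries labelled knockdown, 2.34% to 4.02% in hypoxia and 5.88% to 8.24% in normoxia, lowest in the hypoxia libraries. Trbv29 had 7, 7 and 8 counts in libraries labelled knockdown, 66, 7 and 24 in hypoxia and 2, 6 and 4 in normoxia. It reached the level of the edgeR filter in hypoxia replicates 1 and 3 alone and was therefore not tested.

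The alpha segments of the semi-invariant cells were sparse. Trav1, used by mucosal-associated invariant T cells, had 0, 1 and 0 counts in libraries labelled knockdown, 6, 0 and 3 in hypoxia and 0 in each normoxia library, where a count of 0 allows up to 3 counts. Trav11 and Trav11d, the alpha segments of invariant natural killer T cells, were not analysed here. Their annotated pseudogene relative Trav11n had 5 counts in knockdown replicate 1 and 0 in every other library.

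Trbv3 and Trbv12-2 were the other beta segments that led a library. Trbv3 had 8, 12 and 3 counts in libraries labelled knockdown, 48, 19 and 46 in hypoxia and 10, 8 and 12 in normoxia, higher in each hypoxia library (log2 difference 1.79, adjusted p = 0.082, and -2.18 for the label against hypoxia, adjusted p = 0.079). Trbv12-2 had 3, 17 and 4 counts in libraries labelled knockdown, 56, 9 and 34 in hypoxia and 4, 6 and 11 in normoxia, and its groups overlapped (2.10, adjusted p = 0.18, and -1.90, adjusted p = 0.37). Trbv13-3 had log2 differences of 2.40 (adjusted p = 0.056) and -2.02 (adjusted p = 0.17).

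Counted over all members, most segments had their higher mean in hypoxia, a count that the choice of members bears on. A segment needed 1 read in any library, and 36 segments had reads in hypoxia alone, which places them above both other groups. The mean of hypoxia was above that of normoxia for 91 of the 106 segments and below it for 12, with 63 of 73 TRA and 22 of 23 TRB segments above and 3 of 6 TRG. Between the label and hypoxia 16 were above and 85 below, with 0 TRB segments above. Between the label and normoxia 42 were above, 28 below and 36 at 0 in both. Most of these segments had few reads: 56 of the 106 had under 10 in all, and 17 had a single one.

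The alpha reads were spread over many segments, none of which passed the filter for the test. No TRA segment exceeded 22 counts in a library, and the most counted TRA segment was a different one in every library, ties aside. Trav16 had 3, 2 and 0 counts in libraries labelled knockdown, 9, 2 and 22 in hypoxia and 1, 1 and 0 in normoxia, high in hypoxia replicates 1 and 3. Its near-copy Trav16n had 0, 2 and 2 counts in libraries labelled knockdown, 8, 3 and 2 in hypoxia and 5, 1 and 2 in normoxia, with overlapping groups. Trav4-3, the other of the 3 TRA segments with the highest mean level, had 0, 5 and 0 counts in libraries labelled knockdown, 1, 4 and 10 in hypoxia and 0, 2 and 0 in normoxia.

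The leading alpha segment of hypoxia replicate 1 was Trav12-1 with 14 counts, which had 0 in hypoxia replicate 2 and 1 in hypoxia replicate 3. Trav13-1 led hypoxia replicate 2 with 8 counts and had 10 and 2 in the other hypoxia libraries, against 0 in each library labelled knockdown and 1, 0 and 0 in normoxia. In the other groups a lead rested on 3 to 5 counts for Trav7-3 (3 counts in knockdown replicate 3) and Trav4-4-dv10 (4 in normoxia replicate 3), and on 2 for Trav14-1 in normoxia replicate 2, where it was tied. Of the TRA counts, 70.3% ± 16.2 in libraries labelled knockdown, 69.4% ± 7.5 in hypoxia and 70.2% ± 13.9 in normoxia fell on the 42 segments without a d or an n in the name.

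Hypoxia libraries held reads of more segments, and most of the excess was gone at equal numbers of segment reads. At least 1 read was found for 39, 38 and 36 segments in libraries labelled knockdown, 76, 57 and 73 in hypoxia and 36, 33 and 32 in normoxia. When each library was reduced by calculation to 121 segment reads, the number of the smallest library, the expected numbers were 36.1, 33.4 and 34.9 in libraries labelled knockdown, 37.4, 41.2 and 36.5 in hypoxia and 34.9, 31.7 and 32 in normoxia. Their means were 34.8 ± 1.4 in libraries labelled knockdown, 38.4 ± 2.5 in hypoxia and 32.9 ± 1.8 in normoxia. The expected numbers of the hypoxia libraries still lay above all others, hypoxia replicate 3 only just above knockdown replicate 1.

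**Figure D4:**
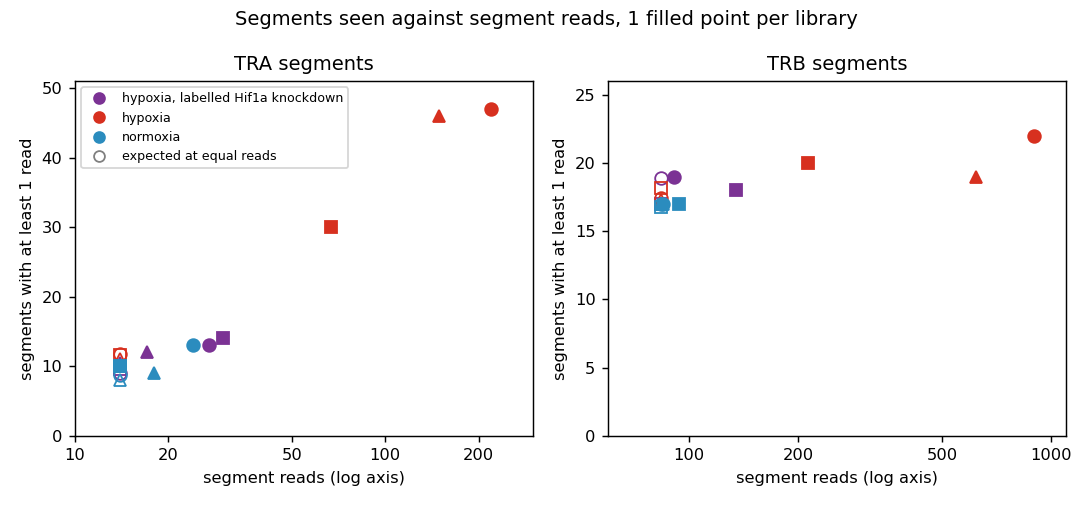
Number of TRA and TRB segments with at least 1 read against the reads on that locus (log axis), 1 filled point per library, with the number expected at equal reads as open points. TRA climbs with reads up to 47 segments at 220 reads, TRB stays between 17 and 22 over 84 to 895 reads, and the open points lie close together.

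The excess before this reduction lay in TRA, with 13, 14 and 12 segments in libraries labelled knockdown, 47, 30 and 46 in hypoxia and 13, 10 and 9 in normoxia. At an equal 14 TRA reads most of it was gone too. The expected numbers averaged 9.75 ± 0.72 in libraries labelled knockdown, 11.4 ± 0.37 in hypoxia and 8.94 ± 0.996 in normoxia. Those of the hypoxia libraries still lay above all others. TRB was close to full in every library, with 17 to 19 segments in libraries labelled knockdown, 19 to 22 in hypoxia and 17 in each normoxia library, and 12 TRB segments were found in all 9 libraries, against 0 of TRA. Of the 36 segments with reads in hypoxia alone, 34 were of TRA.

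The concentration of reads on few segments overlapped between the groups over all loci and within TRB, and did not within TRA. The 5 most counted segments of a library held 40.4% ± 2.4 of its segment counts in libraries labelled knockdown, 39.3% ± 3.1 in hypoxia and 39.8% ± 0.7 in normoxia (SD, n = 3 each). Within TRB they held 53.0% ± 0.53 in libraries labelled knockdown, 53.1% ± 1.6 in hypoxia and 55.1% ± 4.4 in normoxia. Within TRA they held 59.5% ± 3.2 in libraries labelled knockdown, 33.6% ± 7.8 in hypoxia and 69.6% ± 7.2 in normoxia, with no overlap between any of the groups. The TRA shares rest on 17 to 30 counts in libraries labelled knockdown, 67 to 220 in hypoxia and 14 to 24 in normoxia, and the part of this difference in reads was not tested.

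Trbv16 was the most counted TRB segment in 4 of the 9 libraries, the 3 of hypoxia and knockdown replicate 3. Trbv13-2 led in knockdown replicate 1 and normoxia replicates 1 and 2, Trbv12-2 in knockdown replicate 2 and Trbv3 in normoxia replicate 3.

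Of the gamma and delta segments, Trdv4 was the most counted and the 1 that could be tested. This delta segment is known from resident gamma-delta T cells of mouse barrier tissues, the lung among them. It had 25, 14 and 18 counts in libraries labelled knockdown, 14, 13 and 24 in hypoxia and 10, 14 and 6 in normoxia. It held 78.4% ± 16.1 of TRD counts in libraries labelled knockdown, 76.4% ± 6.38 in hypoxia and 76.8% ± 16.7 in normoxia. Its log2 difference was 0.65 between hypoxia and normoxia (95% interval -0.33 to 1.63, adjusted p = 0.51), 0.22 between the label and hypoxia (-0.70 to 1.15, adjusted p = 0.93) and 0.87 between the label and normoxia (-0.10 to 1.84, adjusted p = 0.27).

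Among the other delta segments, Trdv2-2 had 0, 7 and 3 counts in libraries labelled knockdown, 1, 4 and 1 in hypoxia and 0, 0 and 3 in normoxia. Trdv1 and Trdv5 had at most 4 counts in a library. The gamma locus was led by Trgv2, with 7, 4 and 5 counts in libraries labelled knockdown, 17, 6 and 14 in hypoxia and 3, 6 and 3 in normoxia, where hypoxia replicate 2 lay within the other groups. Trgv6 had 2, 0 and 1 counts in libraries labelled knockdown, 0, 1 and 5 in hypoxia and 3, 6 and 0 in normoxia. Trgv4, Trgv5, Trgv1 and Trgv3 had at most 4 counts in a library, too few to order the groups.

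The constant genes, which every receptor transcript of a locus carries whatever its variable segment, were highest in hypoxia for alpha and beta, as the segments were. Trbc2 had 135, 208 and 137 counts in libraries labelled knockdown, 1069, 281 and 880 in hypoxia and 107, 106 and 118 in normoxia. It rose in hypoxia by 2.63 (log2, SE 0.42, adjusted p = 0.0074) and was lower with the label than in hypoxia (-2.11, adjusted p = 0.023). Trac averaged 3.64 ± 1.07 CPM in libraries labelled knockdown, 21.9 ± 8.86 in hypoxia and 3.82 ± 1.03 in normoxia (SD, n = 3 each). It rose by 2.52 (adjusted p = 0.0041) and fell by 2.58 with the label against hypoxia (adjusted p = 0.0020). Trbc1 rose by 2.17 in hypoxia (adjusted p = 0.0077), and its -1.45 with the label did not pass (adjusted p = 0.062). Trdc, the delta constant gene, differed by 0.54 between hypoxia and normoxia (adjusted p = 0.39) and by 1.01 between the label and normoxia (adjusted p = 0.060). The gamma constant genes summed to 2.90 ± 1.49 CPM in libraries labelled knockdown, 3.29 ± 0.946 in hypoxia and 3.57 ± 1.14 in normoxia, which overlapped. Of the 7 constant genes tested, 3 rose in hypoxia (3 with DESeq2, 2 with limma-voom), 2 were lower with the label than in hypoxia (3 with DESeq2, 1 with limma-voom), and with edgeR 0 differed between the label and normoxia (1 at an unadjusted p under 0.05, 1 with DESeq2 and 0 with limma-voom).

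**Figure D5:**
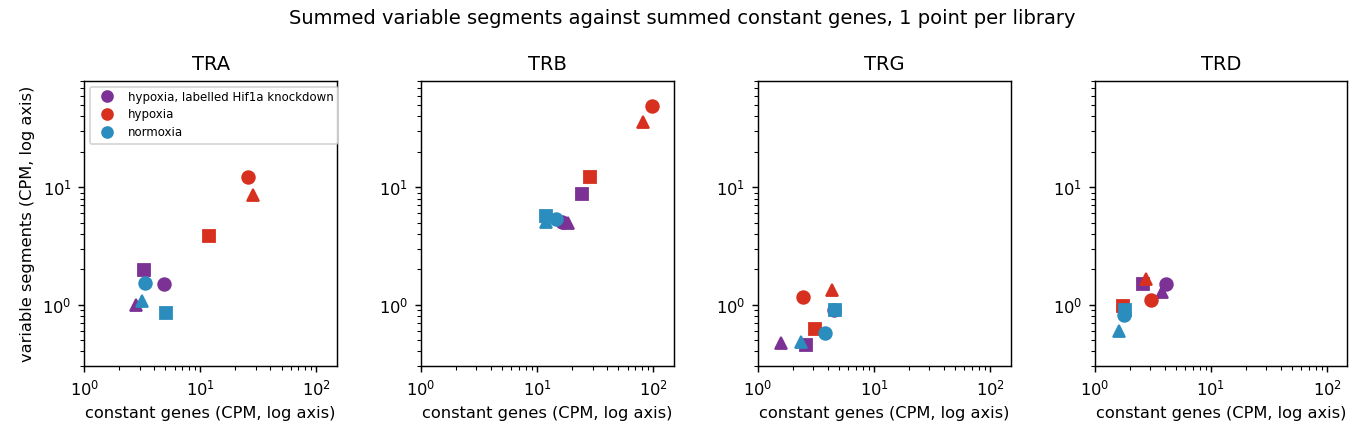
Summed level of variable segments against the summed level of the constant genes of the same locus (CPM, both axes log), 1 point per library; circles, squares and triangles are replicates 1, 2 and 3. In TRA and TRB the hypoxia libraries lie at the upper right, in TRG the groups overlap, and in TRD libraries labelled knockdown lie above those of normoxia on both axes and overlap with hypoxia.

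In TRA and TRB, reads on variable segments per read on the constant genes of the locus differed less between groups than the levels did. For TRB the ratio of counts was 0.315 ± 0.050 in libraries labelled knockdown, 0.459 ± 0.046 in hypoxia and 0.426 ± 0.054 in normoxia (SD, n = 3 each). The ratio of libraries labelled knockdown, 0.267 to 0.366, lay below that of normoxia, 0.370 to 0.477, and of hypoxia, 0.425 to 0.511. For TRA it was 0.422 ± 0.156 in libraries labelled knockdown, 0.366 ± 0.091 in hypoxia and 0.323 ± 0.144 in normoxia, with overlap. For TRG it was 0.223 ± 0.065 in libraries labelled knockdown, 0.328 ± 0.140 in hypoxia and 0.184 ± 0.030 in normoxia, and for TRD 0.428 ± 0.128 in libraries labelled knockdown, 0.505 ± 0.126 in hypoxia and 0.445 ± 0.067 in normoxia. The groups overlapped in both.

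The genes of the receptor's partners and of other lymphocytes were set beside the segments. The 4 CD3 chains, which carry the receptor's signal, and the coreceptors Cd4, Cd8a and Cd8b1 rose in hypoxia in 7 of 7 cases (7 with DESeq2, 3 with limma-voom) and were lower with the label than in hypoxia in 5 of 7 (7 with DESeq2, 2 with limma-voom). They differed in 0 of 7 between the label and normoxia with edgeR (0 at an unadjusted p under 0.05, with DESeq2 and with limma-voom). Cd8a, the alpha chain of the coreceptor of cytotoxic T cells, had log2 fold changes of 3.67 in hypoxia (adjusted p = 0.0036) and -3.25 with the label (adjusted p = 0.0038). Cd4, the coreceptor of helper T cells, rose by 1.87 (adjusted p = 0.023), and its -1.70 with the label did not pass (adjusted p = 0.053).

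Markers of natural killer cells, lymphocytes that rearrange no receptor, had another order, though 1 of them, Klrb1c, is also listed for innate-like T cells. All 4 tested, Ncr1, Klrb1c, Klra8 and Eomes, rose in hypoxia (3 of them with limma-voom) and were higher with the label than in normoxia. Between the label and hypoxia 0 of 4 differed with edgeR, and 0 with DESeq2 and limma-voom. There 1, Ncr1, had an unadjusted p under 0.05 with edgeR and was higher with the label by 0.81 (log2). Their summed level was 53.1 to 85.0 CPM in libraries labelled knockdown, 38.9 to 79.2 in hypoxia and 13.8 to 15.8 in normoxia. Of the 9 tested genes of gamma-delta and innate-like T cells, 1 rose in hypoxia and was higher with the label than in normoxia. It was Klrb1c, already counted among the natural killer cell markers. For hypoxia against normoxia 4 of the 9 had an unadjusted p under 0.05 with edgeR, Klrb1c and Maf higher and Sox13 and Zbtb16 lower. There 2 passed with DESeq2 and 1 with limma-voom. For the label against hypoxia 0 passed with edgeR (3 at an unadjusted p under 0.05, 1 with DESeq2, 0 with limma-voom).

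The genes of receptor joining were high in single libraries. Rag1 had 20, 80 and 6 counts in libraries labelled knockdown, 9, 8 and 152 in hypoxia and 1, 13 and 1 in normoxia. Dntt had 9, 63 and 8 counts in libraries labelled knockdown, 8, 5 and 49 in hypoxia and 1, 11 and 4 in normoxia. Knockdown replicate 2 and hypoxia replicate 3 were thus high for both, and knockdown replicate 2 also had the highest TRB sum of its group. Of the other genes of that list, Rag2 had at most 6 counts in a library, and the thymus genes Ptcra, Psmb11 and Foxn1 had at most 3. Hypoxia replicate 1, with 9 counts of Rag1, had the highest TRA and TRB sums of all libraries. Of the 3 tested genes of the list, Rag1, Dntt and Cd1d1, 0 passed in any comparison with edgeR, DESeq2 or limma-voom (1 at an unadjusted p under 0.05 in each). That 1 was Rag1 for hypoxia against normoxia. For the label against hypoxia and against normoxia it was Cd1d1, which was lower with the label. Of the genes of lymph node stroma and vessels, the chemokine gene Ccl21a and the follicle gene Cr2 were tested, and 0 passed with edgeR, DESeq2 or limma-voom (1 at an unadjusted p under 0.05, for the label against normoxia). The list summed to 58.5 to 87.1 CPM in libraries labelled knockdown, 61.6 to 73.4 in hypoxia and 61.3 to 70.1 in normoxia, and Madcam1 had at most 3 counts. The part of the cells that carry these genes in the segment levels was not tested.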

How the data were processed

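The authors deposited raw counts, 1 whole number per gene and library, with no normalization. Per the labels' protocols, total RNA went into NEBNext Ultra libraries. Per the submitters' processing notes, HISAT2, TopHat, StringTie, bcl2fastq, limma and DESeq were used with build mm10. The counting program and its use of strand and of reads with several hits do not stand in the sources used here, which matters for near-identical TRA copies. Positions and sequences were taken from GENCODE M21 by Ensembl identifier, because 0 of the 106 starts in the table equal those of GENCODE. All 106 identifiers matched.

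Members, gene lists and alternatives were chosen with earlier results of these data known. Counts of all genes were fitted with edgeR 4.0.16 in R 4.3.3: filterByExpr kept 17578 genes, libraries were scaled by TMM, and 1 quasi-likelihood model over all 9 libraries had 6 residual degrees of freedom. The Benjamini and Hochberg adjustment of the F-test p-values covered all genes tested, with a threshold of 0.05. Standard errors were derived from the F statistic. Sums, shares and numbers of segments were described per library without a test. Alternatives were DESeq2 1.42.0, limma-voom (limma 3.58.1), other filters and scaling, 2 groups only, a replicate block, family sums and leaving out each library. The edgeR step was tested on simulated data. Segments named in the text were those called, the 3 with the highest mean in each locus, the leading TRA and TRB segment of each library and the segments of semi-invariant or resident T cells. Trbv13-3, the TRB sum without Trbv16 and the pairs of sequences were added after values were seen. Of the marker lists chosen, 1 is not reported here.

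Totals of 15566485 to 18046442 counts per library make 3 counts, the upper limit that a count of 0 allows, equal to 0.166 to 0.196 CPM. Intervals and this floor take in counting error alone, because the reads carry no molecular identifiers and need not be independent molecules.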

Additional observations from a re-analysis of the deposited data

How the results depend on the processing

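The numbers of segments called moved with the processing. For hypoxia against normoxia the 4 calls became 12 without the low-count filter and 9 with DESeq2, 2 at a filter of 1 CPM in 3 libraries, 2 with 2 groups only and 0 with limma-voom, where 7 of 10 had an unadjusted p under 0.05. Leaving out 1 library gave 0 to 12 calls, 12 of them without hypoxia replicate 2, the hypoxia library with the lowest TRA and TRB sums. In the fit without normoxia replicate 3, which called 0, 14 of 18 tested segments had an unadjusted p under 0.05. For the knockdown label against hypoxia the 3 calls became 8 without the filter, 7 with DESeq2, 0 with 2 groups only and 0 with limma-voom, and 0 to 8 when 1 library was left out. Over all tested genes the 742 calls for hypoxia against normoxia became 1293 without the filter, 1257 with DESeq2 and 744 at 1 CPM. They became 444 with 2 groups only, 462 with limma-voom and 209 to 965 without 1 library. The 301 for the label against hypoxia became 644 without the filter and 545 with DESeq2. They became 252 with 2 groups only, 270 with limma-voom and 189 to 425 without 1 library. Beyond the larger or smaller sets of libraries and tested genes, the cause was not tested. DESeq2 size factors kept both numbers, and the locus sums moved by less than the spread between libraries in every alternative. They kept their direction except for the label against normoxia, where leaving out 1 library took the log2 ratio of TRB (0.22) to -0.11 without knockdown replicate 2, and that of TRG (-0.10) to 0.06 without knockdown replicate 2, 0.05 without knockdown replicate 3 and 0.21 without normoxia replicate 2.

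Replicate numbers gave no steady sign of paired libraries. The correlations of same-numbered libraries were -0.17, -0.09 and 0.29 for hypoxia with normoxia and -0.11, -0.45 and -0.27 for the label with hypoxia. For the label with normoxia they were 0.25, 0.04 and -0.12. Those of libraries with different numbers ran from -0.33 to 0.47. With 3 libraries per group such values scatter widely and cannot exclude pairing. With the replicate block, 2 segments (Trbv13-1 and Trbv16) passed for hypoxia against normoxia, 0 for the label against hypoxia and 0 for the label against normoxia. Calls over all tested genes fell as well. For hypoxia against normoxia they went from 742 in the main fit to 400 with the block. For the label they went from 301 to 197 against hypoxia and from 1446 to 936 against normoxia.

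The number of segments found per library averaged 37.7 in libraries labelled knockdown, 68.7 in hypoxia and 33.7 in normoxia. At a minimum of 3 counts it was 20 in libraries labelled knockdown, 41.0 in hypoxia and 17.7 in normoxia, at a minimum of 10 counts 4 with the label, 18.7 in hypoxia and 3 in normoxia, and at equal reads 34.8 with the label, 38.4 in hypoxia and 32.9 in normoxia. The top 3 segments held 28.1% with the label, 27.9% in hypoxia and 27.7% in normoxia, the top 10 held 61.3% with the label, 60.2% in hypoxia and 61.5% in normoxia, and the top 5 families held 49.9% with the label, 50.3% in hypoxia and 50.8% in normoxia. Depth limits the single segments: 56 of 106 had under 10 counts in all.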

Other observations

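The annotated pseudogenes among the beta segments had 0, 1 and 0 counts in libraries labelled knockdown, 7, 5 and 6 in hypoxia and 1, 1 and 0 in normoxia. Most of these came from Trbv24, with 0, 1 and 0 counts in libraries labelled knockdown, 5, 5 and 6 in hypoxia and 1, 0 and 0 in normoxia. Among the alpha segments with counts in hypoxia and in no other group, Trav12-3 had 7, 3 and 9 counts in hypoxia and 0 in each library of the other groups. Trav6n-6 had 0, 3 and 13 counts in hypoxia and Trav7-1 had 11, 4 and 1, again with 0 elsewhere. These segments were picked after their values were seen. The 8 alpha segments that can also join the delta chain held 18.8% ± 3.0 of TRA counts in libraries labelled knockdown, 9.27% ± 3.39 in hypoxia and 10.6% ± 15.0 in normoxia (SD, n = 3 each). These shares rest on 14 counts in libraries labelled knockdown, 43 in hypoxia and 6 in normoxia.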
